A study of Saccharomyces cerevisiae with 18 samples.

Results

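The 46 nuclear genes of the tricarboxylic acid (TCA) cycle and the respiratory chain of budding yeast, Saccharomyces cerevisiae, were examined among the 7130 genes of a deposited RNA-seq count table. The members were chosen by name, and all 46 were found. They are 10 TCA cycle enzymes outside complex II (CIT1, ACO1, IDH1, IDH2, KGD1, KGD2, LSC1, LSC2, FUM1 and MDH1), the peroxisomal citrate synthase CIT2, and the 4 subunits of succinate dehydrogenase or complex II (SDH1 to SDH4). The chain itself is represented by the internal NADH dehydrogenase NDI1, by 9 subunits of the cytochrome bc1 complex or complex III (COR1, QCR2, QCR6 to QCR10, RIP1 and CYT1), by the cytochromes c CYC1 and CYC7 with the lactate dehydrogenase CYB2, and by 9 subunits of cytochrome c oxidase or complex IV (COX4, COX5A, COX5B, COX6 to COX9, COX12 and COX13). The remaining 9 genes encode subunits of ATP synthase (ATP1 to ATP5, ATP7, ATP14, ATP16 and ATP17).

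The study concerned Fes1, a nucleotide exchange factor of the chaperone Hsp70, whose transcript is spliced into a short cytosolic form and a long form. Cells grew at 25 °C in YPD, a rich medium with glucose, and were taken in log phase. There were 4 strains with 3 libraries each: fes1Δ (CAY1221, labelled as the full deletion), fes1ΔS (CAY1290, without the short form by its label), fes1ΔL (CAY1256, without the long form by its label) and wild type (WT, CAY1015). Each library came from its own RNA isolation, which need not be a separate culture, and each genotype is a single numbered strain. The 6 heat-shock samples (37 °C for 30 min) were not analysed here.

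In the TCA cycle, acetyl groups are joined to oxaloacetate as citrate and oxidised to carbon dioxide, and the electrons released pass through the respiratory chain to oxygen while protons are pumped across the inner mitochondrial membrane. ATP synthase uses the return of those protons. Budding yeast lacks the proton-pumping complex I and uses single-subunit NADH dehydrogenases such as Ndi1 in its place. On glucose most of these genes are held at low expression, and the Hap2/3/4/5 complex, Hap1 (which responds to heme) and Adr1 are known activators of genes for respiratory growth, while the retrograde factors Rtg1 and Rtg3 act on the first steps of the cycle, CIT1, ACO1, IDH1 and IDH2, and on CIT2.

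Total counts ran from 7608550 to 10246711 per library. The targeted gene went against the label of the full deletion: FES1 (YBR101C) had 157, 151 and 168 CPM (counts scaled to library size) in fes1Δ-labelled libraries, 1526, 1399 and 1377 CPM in fes1ΔS libraries, 150, 144 and 144 CPM in fes1ΔL libraries, and 165, 158 and 150 CPM in WT libraries. FES1 was thus at the WT level in the libraries labelled fes1Δ. The marker URA3 (YEL021W) set these libraries apart, with 220, 225 and 214 CPM there and at most 3 counts in any other library. Every direction given below for this group therefore rests on its label alone. Counts per gene do not tell the short and the long form of FES1 apart, so the loss of either form in fes1ΔS and fes1ΔL was not checked, and FES1 counts were above WT in fes1ΔS. All 46 members passed the expression filter, and none overlaps another gene in the RefSeq annotation, but how reads shared by similar genes (CIT1 and CIT2, COX5A and COX5B, CYC1 and CYC7, and the paralogs of SDH1 and SDH3) were counted is nowhere stated in the sources at hand.

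Levels can be compared between genes only per length. The authors' FPKM values, which divide fragments by transcript length and by sequencing depth, could be used for 22 members. In WT libraries, the highest of them was COX9, a small subunit of cytochrome c oxidase, with 508 ± 155 FPKM, followed by QCR9 of complex III with 331 ± 42.2 FPKM and COX13 with 288 ± 9.19 FPKM (SD, n = 3 each). Each of these 3 differed from its neighbour by less than the sum of their SDs. FPKM of COX9 spread more than its counts, with 343, 651 and 531 FPKM in WT libraries 1, 2 and 3, against 43.3, 51.6 and 50.7 CPM. This order is therefore that of the authors' FPKM only, and it was not checked by another measure per length. ATP1, the alpha subunit of ATP synthase, had 259 ± 3.75 FPKM, and the gamma subunit gene ATP3 had 183 ± 4.38 FPKM (SD, n = 3 each). At the low end, KGD1 of the 2-oxoglutarate dehydrogenase complex had 46.7 ± 1.42 FPKM and CYC7, the minor cytochrome c of aerobic cells, had 16.4 ± 4.15 FPKM (SD, n = 3 each), so CYC7 lay below every other member measured on this scale. The respiratory genes carried by the mitochondrial genome cannot be set beside them: 7 are listed, and all 7 had 0 counts in every library, where 3 counts would correspond to 0.293 to 0.394 CPM.

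**Figure D1:**
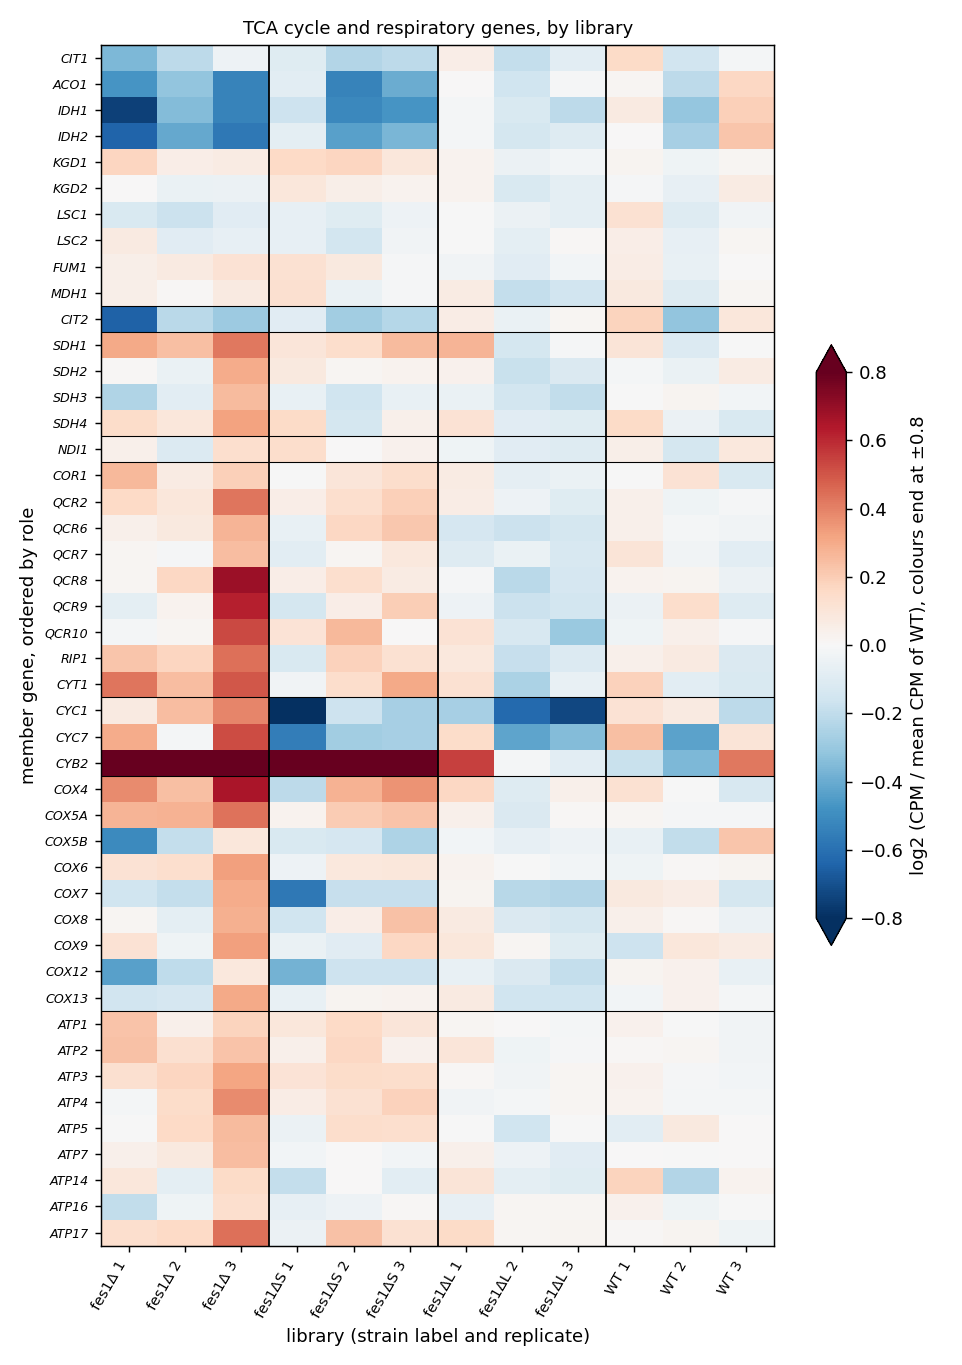
Level of each of the 46 genes (rows, ordered by role) in each of the 12 libraries (columns), as log2 of its CPM over the mean CPM of the 3 WT libraries, with colours ending at ±0.8. The blue block at ACO1, IDH1 and IDH2, the red CYB2 row in the fes1Δ and fes1ΔS columns, and the redder column of library 3 labelled fes1Δ are the patterns described in the text.

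Members called in the libraries labelled fes1Δ against WT went in opposite directions in 2 stretches of the pathway. Genes of the TCA cycle steps that follow citrate, ACO1, IDH1 and IDH2, stood at 0.69 to 0.74 of the WT level. In contrast, 8 genes of the chain and of ATP synthase were higher, CYB2 by 4.21-fold and SDH1, QCR2, CYT1, COX5A, ATP2, ATP3 and ATP17 by 1.15-fold to 1.31-fold. Thus 8 of 46 members were called higher and 3 lower (edgeR's quasi-likelihood test, Benjamini-Hochberg adjusted p under 0.05), against 5.72% of the 5719 genes tested called higher and 7.15% called lower. As shares of the 46 members these were 17.4% and 6.52%, so lower calls were no more frequent among the members than among all genes. In 15 members all 3 libraries labelled fes1Δ lay above all 3 WT libraries, and in 3 members all lay below, where such separation was found upward in 11.6% and downward in 13.5% of genes tested. These counts changed when single libraries were left out, and the shares over all genes in those smaller fits are not given here. Without WT library 1 there were 5 higher and 1 lower, without WT library 2 there were 5 and 5, and without WT library 3 there were 2 and 1. Leaving out library 1 labelled fes1Δ gave 8 higher and 0 lower, leaving out library 3 gave 3 and 4, and leaving out library 2 gave 9 and 4.

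Within the TCA cycle outside complex II, 3 of 10 enzymes fell, none was called higher, and the median log2 fold change was -0.08, against 0.00 over all genes tested. IDH2 (YOR136W), which encodes the catalytic subunit of the mitochondrial NAD-dependent isocitrate dehydrogenase, had 337, 397 and 354 CPM in the libraries labelled fes1Δ, against 527, 438 and 614 CPM in WT libraries. All 3 libraries labelled fes1Δ lay below all 3 of WT, with a log2 fold change of -0.54 (SE 0.116, 95% interval -0.79 to -0.29, adjusted p = 0.00754). IDH1 (YNL037C), the regulatory subunit of the same enzyme, had 196, 260 and 228 CPM in the libraries labelled fes1Δ, against 347, 267 and 377 CPM in WT libraries. The groups did not overlap, although the highest library labelled fes1Δ and the lowest of WT lay close together, and the log2 fold change was -0.53 (SE 0.142, adjusted p = 0.0305). ACO1 (YLR304C), the aconitase that turns citrate into isocitrate, had 616, 687 and 590 CPM in the libraries labelled fes1Δ, against 862, 739 and 959 CPM in WT libraries. These groups did not overlap either, and the log2 fold change was -0.44 (SE 0.114, adjusted p = 0.0227). For all 3 genes the lowest WT library was library 2, which was the lowest of the WT libraries in all 11 of these enzymes including CIT2. The ACO1 and IDH1 calls were each lost without WT library 1, without WT library 3, without library 1 labelled fes1Δ and without library 3 labelled fes1Δ, with adjusted p from 0.0787 to 0.107 for ACO1 and from 0.0843 to 0.135 for IDH1. The IDH2 call was lost without library 1 labelled fes1Δ (adjusted p = 0.0598).

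Citrate synthase, which makes the substrate of aconitase, has a mitochondrial form encoded by CIT1 and a peroxisomal form encoded by CIT2, a textbook target of retrograde signalling. CIT1 (YNR001C) had 157, 174 and 196 CPM in the libraries labelled fes1Δ, against 224, 181 and 199 CPM in WT libraries. CIT2 (YCR005C) had 166, 224 and 213 CPM in the libraries labelled fes1Δ, against 295, 210 and 277 CPM in WT libraries. Both pairs of groups overlapped. Neither passed the test, with log2 fold changes of -0.20 for CIT1 (SE 0.087, adjusted p = 0.150) and -0.38 for CIT2 (SE 0.126, adjusted p = 0.0755). CIT1 passed it without WT library 2 (adjusted p = 0.0499) or without library 3 labelled fes1Δ (adjusted p = 0.0322). CIT2 passed it without WT library 2 (adjusted p = 0.00259), without library 2 labelled fes1Δ (adjusted p = 0.0491) and with DESeq2 (adjusted p = 0.0143).

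The later enzymes of the cycle did not pass the test in either direction. Their log2 fold changes were 0.10 for KGD1 and -0.03 for KGD2, components of 2-oxoglutarate dehydrogenase, -0.13 for LSC1 and -0.03 for LSC2, the subunits of succinyl-CoA ligase, 0.08 for the fumarase gene FUM1, and 0.04 for the malate dehydrogenase gene MDH1.

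**Figure D2:**
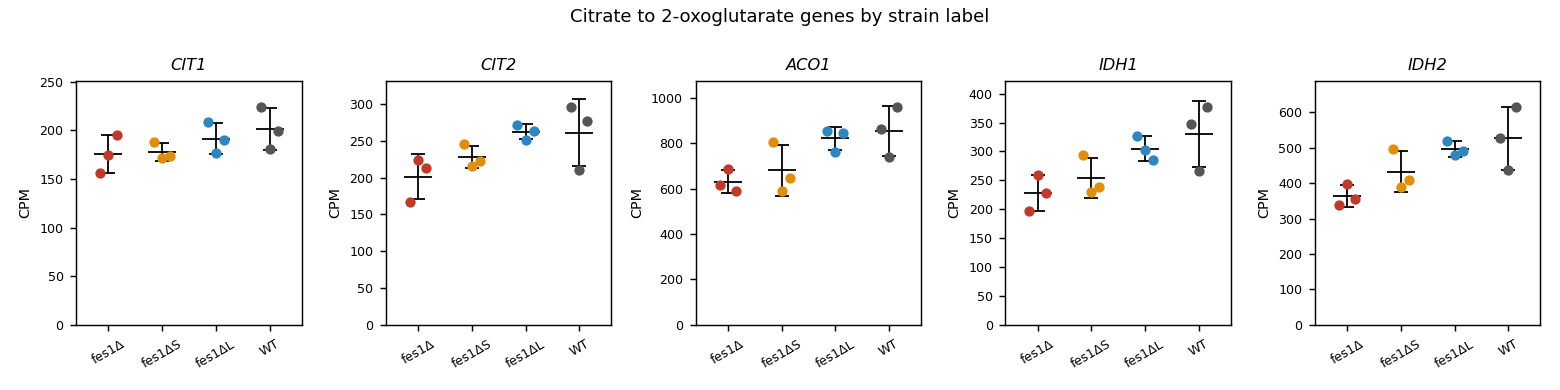
CPM (vertical axes, starting at 0) of CIT1, CIT2, ACO1, IDH1 and IDH2 in the 3 libraries of each strain label (points), with the mean and SD of the 3 as lines. The fes1Δ points of ACO1, IDH1 and IDH2 lie below all WT points, whereas those of CIT1 and CIT2 overlap them.

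At complex II, which belongs to both the cycle and the chain, SDH1 rose and the other 3 subunits were not called. SDH1 (YKL148C), the flavoprotein subunit, had 71.6, 68.6 and 77.8 CPM in the libraries labelled fes1Δ, against 62.4, 53.7 and 57.8 CPM in WT libraries. The groups did not overlap, and the log2 fold change was 0.32 (SE 0.090, adjusted p = 0.0226). The iron-sulfur subunit SDH2 had a log2 fold change of 0.09, the membrane anchors SDH3 and SDH4 had -0.01 and 0.19, and NDI1, which feeds electrons from matrix NADH into the chain, had 0.02. The SDH1 call was lost without WT library 2, without WT library 3, without library 1 labelled fes1Δ and without library 3 labelled fes1Δ (adjusted p from 0.0534 to 0.0811).

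All 9 subunits of complex III had positive log2 fold changes, from 0.09 to 0.39 with a median of 0.22, and 2 of the 9 were called higher. Library 3 stood apart here: the median log2 ratio of these 9 genes to the WT mean was 0.04, 0.08 and 0.44 in libraries 1, 2 and 3 labelled fes1Δ. CYT1 (YOR065W), cytochrome c1, had 105, 92.3 and 110 CPM in the libraries labelled fes1Δ, against 88.3, 73.4 and 71.4 CPM in WT libraries. QCR2 (YPR191W), a core subunit, had 144, 137 and 173 CPM in the libraries labelled fes1Δ, against 133, 126 and 128 CPM in WT libraries. Neither gene's groups overlapped, and for QCR2 library 3 stood above the other 2 libraries labelled fes1Δ. CYT1 differed by 0.39 (SE 0.110, adjusted p = 0.0322) and QCR2 by 0.23 (SE 0.074, adjusted p = 0.0487) on the log2 scale. The Rieske iron-sulfur protein gene RIP1 was also higher in each library labelled fes1Δ than in any of WT, with a log2 fold change of 0.28 that missed the threshold (adjusted p = 0.0512). The CYT1 call was lost without WT library 2, without WT library 3, without library 1 labelled fes1Δ and without library 3 labelled fes1Δ (adjusted p of up to 0.122). The QCR2 call was lost without any single WT library (adjusted p from 0.0741 to 0.125), without library 3 labelled fes1Δ (adjusted p = 0.184), with DESeq2 (adjusted p = 0.0509) and when no other strain was fitted (adjusted p = 0.133).

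CYB2 (YML054C) had the largest change of the 46 genes. It encodes cytochrome b2, the L-lactate dehydrogenase of the intermembrane space that passes electrons to cytochrome c. There were 13.42, 13.38 and 15.04 CPM in the libraries labelled fes1Δ, against 2.93, 2.59 and 4.44 CPM in WT libraries, from 111 to 114 counts against 23 to 37 counts. The lowest library labelled fes1Δ lay far above the highest of WT, and the log2 fold change was 2.07 (SE 0.210, 95% interval 1.63 to 2.51, adjusted p = 7.73e-07). This call held in all 11 alternatives on counts, each library left out included, and could not be checked on FPKM.

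Cytochrome c carries electrons from complex III to complex IV. The main form CYC1 had 44.5, 50.3 and 55.5 CPM in the libraries labelled fes1Δ, against 45.8, 44.4 and 36.6 CPM in WT libraries. Its minor form CYC7, a gene raised under low oxygen, had 8.36, 6.75 and 9.81 CPM in the libraries labelled fes1Δ, against 8.06, 5.07 and 7.33 CPM in WT libraries. Both overlapped with WT and neither passed the test (log2 fold changes 0.24 and 0.28, adjusted p = 0.377 and 0.413).

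**Figure D3:**
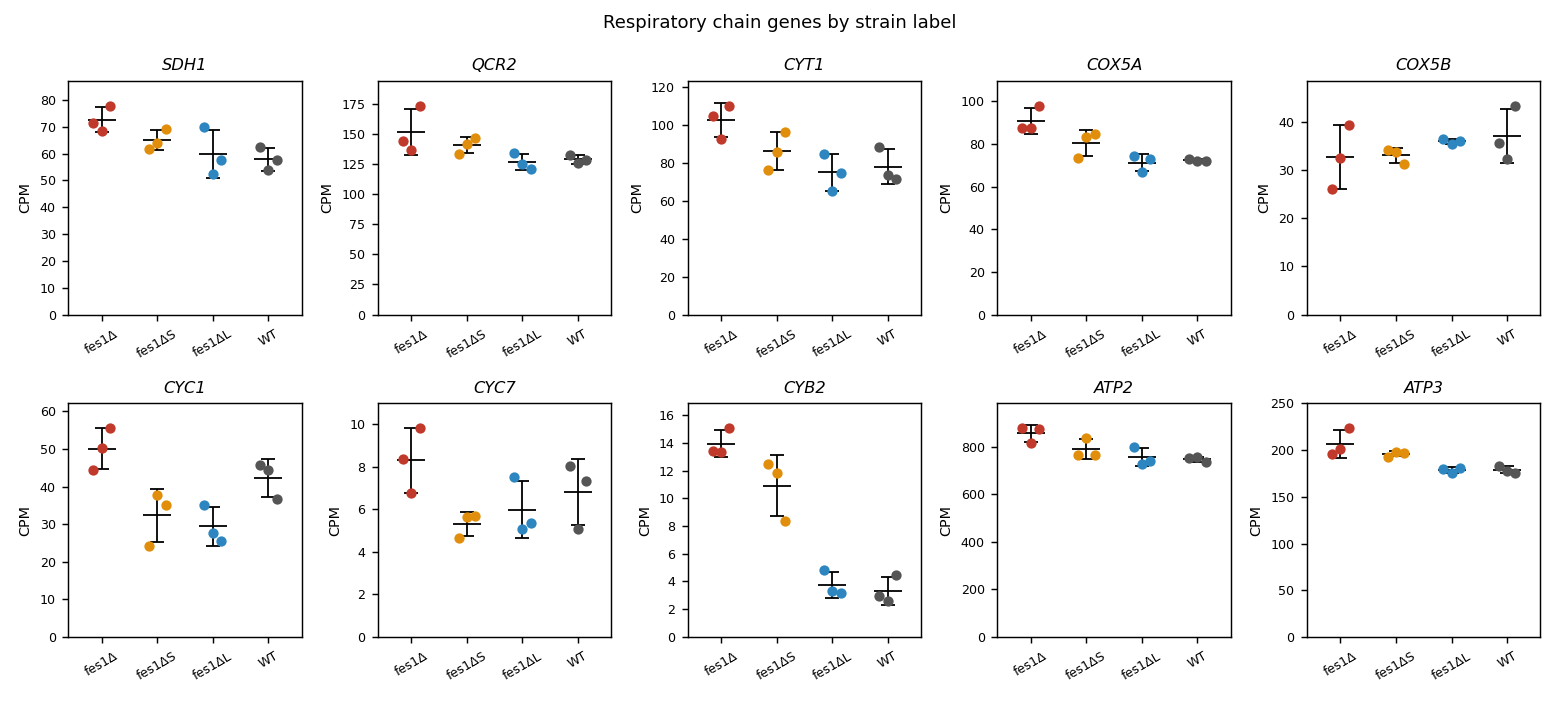
CPM (vertical axes, starting at 0) of 10 genes of complex II, III and IV, the cytochromes c, CYB2 and ATP synthase in the 3 libraries of each strain label (points), with the mean and SD of the 3 as lines. CYB2 lies near 14 CPM in the fes1Δ libraries and near 11 CPM in the fes1ΔS libraries, and below 5 CPM in the fes1ΔL and WT libraries, while the shifts of the other genes are small beside their levels.

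In complex IV, 1 of 9 subunits rose and none fell. COX5A (YNL052W), which encodes the subunit 5 isoform of aerobic growth, had 87.3, 87.6 and 97.8 CPM in the libraries labelled fes1Δ, against 73.2, 71.9 and 71.8 CPM in WT libraries. The groups were well separated, and the log2 fold change of 0.33 (SE 0.067, 95% interval 0.19 to 0.47, adjusted p = 0.00245) held in all 11 alternatives on counts. COX5B (YIL111W), the isoform known from low oxygen, had 26.1, 32.5 and 39.5 CPM in the libraries labelled fes1Δ, against 35.7, 32.4 and 43.4 CPM in WT libraries. Its groups overlapped, and its log2 fold change of -0.19 was not called (SE 0.121, adjusted p = 0.356), though without library 3 labelled fes1Δ it was -0.34 (adjusted p = 0.0406). COX4 and COX6, also without overlap between the groups, had log2 fold changes of 0.43 (adjusted p = 0.0923) and 0.19 (adjusted p = 0.0568). The remaining 5 subunits lay between -0.17 (COX12) and 0.14 (COX9).

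Of the 9 ATP synthase subunits, 3 rose, none fell and 8 had positive log2 fold changes, with a median of 0.15. ATP2 (YJR121W), the catalytic beta subunit, had 876, 815 and 876 CPM in the libraries labelled fes1Δ, against 751, 755 and 733 CPM in WT libraries. ATP3 (YBR039W), the gamma subunit of the rotating stalk, had 195, 201 and 223 CPM in the libraries labelled fes1Δ, against 183, 178 and 176 CPM in WT libraries. ATP17 (YDR377W), subunit f of the membrane part, had 85.3, 86.8 and 105 CPM in the libraries labelled fes1Δ, against 78.2, 78.6 and 75.8 CPM in WT libraries. In all 3 genes the groups did not overlap, with log2 fold changes of 0.20 for ATP2 (SE 0.058, adjusted p = 0.0303), 0.21 for ATP3 (SE 0.056, adjusted p = 0.0194) and 0.25 for ATP17 (SE 0.080, adjusted p = 0.0478). ATP1 and ATP7 were likewise separated from WT without passing the test (0.15, adjusted p = 0.0947, and 0.12, adjusted p = 0.198). The ATP2 call was lost without WT library 1, without WT library 3 and without library 1 labelled fes1Δ (adjusted p from 0.0679 to 0.103), and when no other strain was fitted (adjusted p = 0.106). The ATP3 call was lost without WT library 3 (adjusted p = 0.0779), without library 3 labelled fes1Δ (adjusted p = 0.0650), when no other strain was fitted (adjusted p = 0.116) and on FPKM (adjusted p = 0.168). The ATP17 call was lost without any single WT library, without library 2 and without library 3 labelled fes1Δ (adjusted p from 0.0534 to 0.163), with DESeq2 (adjusted p = 0.0590), when no other strain was fitted (adjusted p = 0.0793) and on FPKM (adjusted p = 0.356).

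When the chain and ATP synthase were put together, a grouping formed after the values were seen, 30 of 35 genes had positive log2 fold changes in the libraries labelled fes1Δ against WT, with a median of 0.18. The 10 TCA enzymes and CIT2 had 3 of 11 positive and a median of -0.13. Over all genes tested, 2865 of 5719 were positive. Genes measured in the same libraries do not give independent signs. Much of the shift of the 35 genes sat in a single library. Library 3 labelled fes1Δ was the highest of its 3 libraries in 32 of the 35 genes, and the median log2 ratio of the 35 genes to the WT mean was 0.32 there, against 0.07 in library 1 and 0.08 in library 2. Without it the median log2 fold change was 0.08 and 25 of 35 were positive. That library was also the shallowest of the 12, and its part in the result was tested only by leaving it out. For the 11 TCA genes the median moved most without WT library 1, to -0.06.

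**Figure D4:**
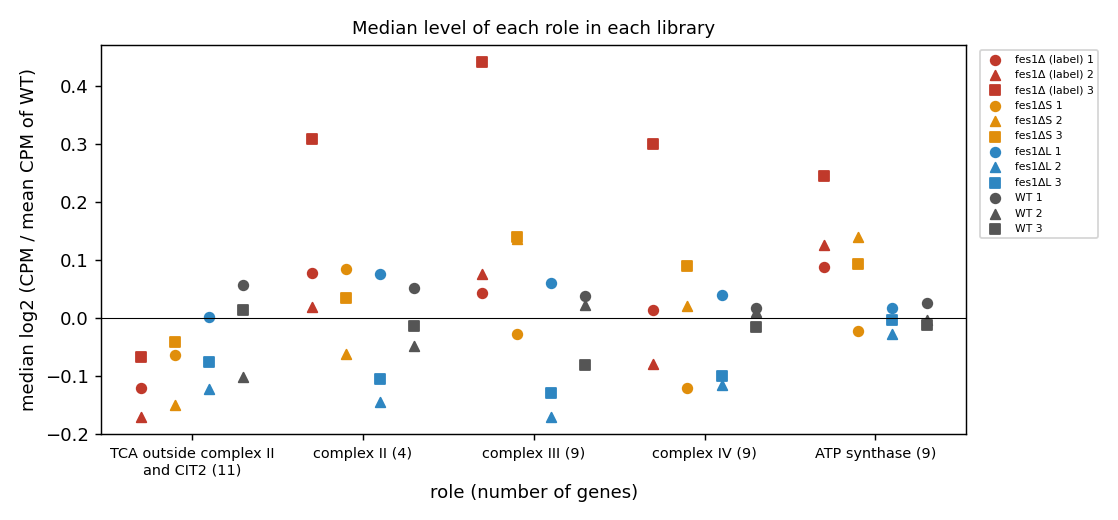
Median log2 ratio of CPM to the WT mean over the genes of each role (horizontal axis, number of genes in parentheses) in each of the 12 libraries (symbols coloured by strain label). The square of library 3 labelled fes1Δ is the highest of all symbols in complexes II, III and IV and ATP synthase, and not in the TCA cycle.

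In the libraries labelled fes1ΔS, CYB2 was the only one of the 46 genes called against WT. It had 12.5, 11.9 and 8.38 CPM in fes1ΔS libraries, against 2.93, 2.59 and 4.44 CPM in WT libraries, with no overlap. The log2 fold change was 1.73 (3.32-fold, SE 0.215, 95% interval 1.28 to 2.18, adjusted p = 1.60e-05) and was called in all 11 alternatives on counts. So 1 of 46 members was called higher and 0 lower, beside 3.22% and 3.44% of the genes tested. At an unadjusted p under 0.05 there were 4 higher and 6 lower, beside 548 and 645 of the 5719 genes tested. DESeq2 called 1 higher and 1 lower, ACO1. The shares of all genes called by DESeq2 are not given here for any comparison, so its counts of members have no background beside them. Libraries were separated upward in 9 members and downward in 3, where 13.6% and 14.5% of genes tested were separated. This comparison uses the same WT libraries as the comparison above.

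The early TCA genes of the fes1ΔS libraries lay below WT on average without passing the test. ACO1 had 805, 590 and 648 CPM in fes1ΔS libraries, against 862, 739 and 959 CPM in WT libraries, IDH1 had 294, 231 and 238 CPM in fes1ΔS libraries, against 347, 267 and 377 CPM in WT libraries, and IDH2 had 498, 390 and 408 CPM in fes1ΔS libraries, against 527, 438 and 614 CPM in WT libraries. In each of the 3 genes fes1ΔS library 1 was the highest of its group and overlapped with WT. The log2 fold changes were -0.32 (adjusted p = 0.116), -0.38 (adjusted p = 0.154) and -0.28 (adjusted p = 0.177). Without WT library 2 all 3 were called (adjusted p = 0.0321 for ACO1, 0.0196 for IDH1 and 0.0176 for IDH2), and without fes1ΔS library 1 ACO1 was called (adjusted p = 0.00673). Complex III had small positive values in all 9 genes (median 0.08) and ATP synthase in 6 of 9 (median 0.08). COX5A had 73.6, 83.2 and 84.8 CPM in fes1ΔS libraries, all above WT, with a log2 fold change of 0.15 (adjusted p = 0.199). Both cytochromes c lay on the lower side: CYC1 had 24.2, 37.7 and 35.1 CPM in fes1ΔS libraries (log2 fold change -0.40, adjusted p = 0.187) and CYC7 had 4.64, 5.63 and 5.67 CPM (-0.37, adjusted p = 0.342).

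**Figure D5:**
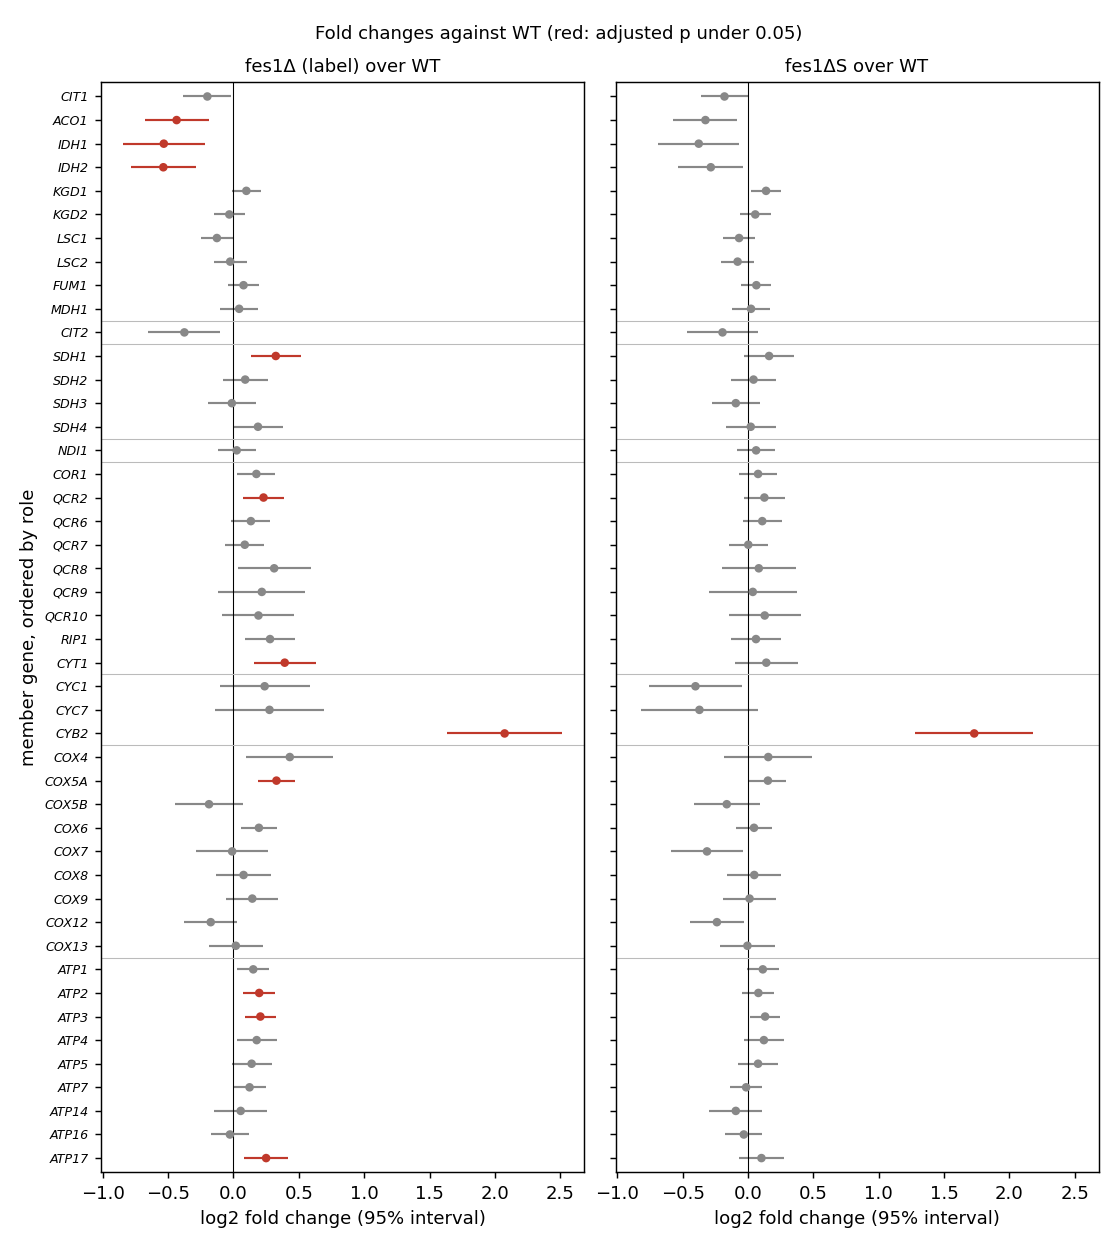
Log2 fold change of each of the 46 genes (rows, ordered by role) with its 95% interval (lines) in the libraries labelled fes1Δ over WT (left) and in fes1ΔS libraries over WT (right), with calls at an adjusted p under 0.05 in red. On the left 11 genes are red and on the right CYB2 alone, and both panels share the 3 WT libraries.

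In the libraries labelled fes1ΔL, no member was called against WT in either direction with edgeR, with DESeq2 or in any of the other alternatives, beside 0.035% of the genes tested in each direction. At an unadjusted p under 0.05, which 94 of the 5719 genes tested passed upward and 138 downward, there were 0 members higher and 1 lower. That gene, CYC1, had 35.2, 27.5 and 25.5 CPM in fes1ΔL libraries, against 45.8, 44.4 and 36.6 CPM in WT libraries. The groups did not overlap, and the log2 fold change was -0.53 (SE 0.164, 95% interval -0.89 to -0.17, adjusted p = 0.984). CYB2 had 4.85, 3.28 and 3.13 CPM in fes1ΔL libraries, overlapping with WT (log2 fold change 0.18, 95% interval -0.35 to 0.72). Separated libraries were found upward in 0 and downward in 3 members (SDH3, QCR6 and CYC1), against 4.98% and 6.24% of genes tested. For 43 of the 46 genes the whole 95% interval lay within ±0.5 on the log2 scale. Log2 fold changes were negative in 38 of 46 with a median of -0.05, beside 2913 of the 5719 genes tested with a median of -0.002. All 46 values come from the same libraries, so their signs are not independent. The highest of the 3 fes1ΔL libraries was library 1 in 40 of 46 genes.

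Set against each other, the libraries labelled fes1Δ and the fes1ΔS libraries gave 0 called members in either direction, beside 1.22% of genes tested called higher and 1.24% called lower. At an unadjusted p under 0.05 there were 8 higher and 1 lower, beside 350 and 373 of the 5719 genes tested. DESeq2 called 1 higher and 0 lower. The gene that DESeq2 called was CYC1, with 44.5, 50.3 and 55.5 CPM in the libraries labelled fes1Δ, against 24.2, 37.7 and 35.1 CPM in fes1ΔS libraries. The groups did not overlap, and the log2 fold change was 0.64 (SE 0.164, 95% interval 0.28 to 1.00) with an adjusted p of 0.0713 in edgeR, of 0.00281 in DESeq2 and of 0.0466 in edgeR without fes1ΔS library 2. CYC7 had a log2 fold change of similar size, 0.65 (SE 0.210, adjusted p = 0.136), again without overlap. For CYB2 the difference was 0.34 (95% interval -0.02 to 0.70, adjusted p = 0.436), with all 3 libraries labelled fes1Δ above all 3 of fes1ΔS. IDH2 differed by -0.25 (95% interval -0.50 to -0.00, adjusted p = 0.389), IDH1 by -0.16 (95% interval -0.47 to 0.16) and ACO1 by -0.11 (95% interval -0.36 to 0.14). COX5A differed by 0.18 (95% interval 0.04 to 0.32, adjusted p = 0.233). Hence the members called in the libraries labelled fes1Δ and not in fes1ΔS were not shown to differ between these groups.

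Between the isoform strains, 2 of 46 members were called higher in fes1ΔS libraries than in fes1ΔL libraries and 0 lower, beside 2.76% and 2.06% of genes tested. CYB2 had 12.5, 11.9 and 8.38 CPM in fes1ΔS libraries, against 4.85, 3.28 and 3.13 CPM in fes1ΔL libraries. The lowest fes1ΔS library lay above the highest of fes1ΔL, with a log2 fold change of 1.55 (2.93-fold, SE 0.207, adjusted p = 4.18e-05) that was called in all 11 alternatives on counts. QCR6 (YFR033C), the acidic hinge subunit of complex III, had 105, 123 and 127 CPM in fes1ΔS libraries, against 99.8, 97.4 and 99.3 CPM in fes1ΔL libraries. Its groups did not overlap, and the log2 fold change was 0.26 (SE 0.071, adjusted p = 0.0383). The QCR6 call was lost without any single fes1ΔL library, without fes1ΔS library 2 and without fes1ΔS library 3 (adjusted p from 0.0955 to 0.224), and on FPKM (adjusted p = 0.248), so that the count of calls was then 1. ACO1, not called here (log2 fold change -0.27, adjusted p = 0.259), was lower in fes1ΔS without fes1ΔS library 1 (-0.41, adjusted p = 0.0206), and CIT2 (-0.20, adjusted p = 0.507) was lower when no other strain was fitted (adjusted p = 0.0198). At an unadjusted p under 0.05 there were 5 higher and 1 lower, beside 439 and 447 of the 5719 genes tested. No member was called lower by DESeq2.

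Genes that regulate respiration were read beside the members. Of 15 regulators, 6 were higher and 1 lower in the libraries labelled fes1Δ than in WT, beside 5.72% and 7.15% of all genes tested. Values against WT follow for ADR1, HAP4 and MOT3, the called regulators with the smallest adjusted p, all of them higher. Over all 15 regulators the log2 fold changes ran from -0.27 to 1.00 with a median of 0.18, and 4 were negative. ADR1, HAP4 and MOT3 all lay above that median, so they do not stand for the list. The regulator called lower is not described. ADR1 (YDR216W), an activator of genes for non-fermentable carbon sources, had 87.6, 82.2 and 82.9 CPM in the fes1Δ-labelled libraries and 79.3, 83.3 and 80.4 CPM in fes1ΔS libraries, against 42.8, 43.5 and 40.4 CPM in WT libraries. Neither mutant group came near WT, and the log2 fold changes were 1.00 (SE 0.068, adjusted p = 1.70e-09) and 0.94 (SE 0.067, adjusted p = 4.89e-09). In fes1ΔL libraries ADR1 had 48.0, 43.4 and 40.7 CPM and overlapped with WT (log2 fold change 0.06), and fes1ΔS exceeded fes1ΔL by 0.88 (adjusted p = 1.18e-08). HAP4 (YKL109W), the activating subunit of the Hap complex, had 75.7, 71.7 and 82.3 CPM in the libraries labelled fes1Δ, against 65.0, 53.5 and 51.2 CPM in WT libraries. Those groups did not overlap (log2 fold change 0.43, SE 0.084, adjusted p = 0.00146), while in fes1ΔS the difference from WT was 0.13 (adjusted p = 0.387), and the libraries labelled fes1Δ and fes1ΔS differed by 0.30 (adjusted p = 0.0700). MOT3, a repressor of hypoxic genes, rose by 0.32 (adjusted p = 0.00514) on the log2 scale in the libraries labelled fes1Δ against WT, and the hypoxic repressor ROX1 was higher there than in fes1ΔS by 0.45 (adjusted p = 0.00455). HAP1, HAP2, HAP3, HAP5, RTG1, RTG2 and RTG3 were not called in any of the 5 comparisons.

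The other lists of cycle and chain genes held called shares of up to 13.3% in a direction, beside the same 5.72% and 7.15% of all genes tested. Of 32 further TCA, pyruvate and glyoxylate genes tested, 2 were higher and 2 lower in the libraries labelled fes1Δ than in WT, among them MPC1 of the mitochondrial pyruvate carrier (log2 fold change 0.29, adjusted p = 0.00474). Of 16 other dehydrogenases and ubiquinone genes, 1 was higher and 2 were lower. NDE1 (YMR145C), an external NADH dehydrogenase that oxidises cytosolic NADH, had 402, 361 and 340 CPM in the fes1Δ-labelled libraries and 302, 354 and 336 CPM in fes1ΔS libraries, against 271, 276 and 277 CPM in WT libraries. Every library of both groups lay above WT, with log2 fold changes of 0.42 (SE 0.068, adjusted p = 0.000262) and 0.27 (SE 0.068, adjusted p = 0.0195). The fes1ΔS call of NDE1 was lost without WT library 1, without WT library 3, without fes1ΔS library 2 and without fes1ΔS library 3 (adjusted p from 0.0535 to 0.134). DLD3, a cytosolic 2-hydroxyglutarate transhydrogenase and a known retrograde target, had 318, 339 and 291 CPM in the libraries labelled fes1Δ, against 465, 365 and 394 CPM in WT libraries. It fell by 0.37 on the log2 scale without overlap (adjusted p = 0.00673), a call lost without WT library 1 (adjusted p = 0.0524). Assembly factors of complexes III and IV gave 1 higher and 1 lower of 39, and the remaining ATP synthase genes gave 0 higher and 2 lower of 15. One of those 2, ATP18 (subunit i/j), had 34.9, 44.5 and 49.8 CPM in the libraries labelled fes1Δ, against 68.2, 56.8 and 59.5 CPM in WT libraries, without overlap (log2 fold change -0.52, adjusted p = 0.00414), against the direction of ATP2, ATP3 and ATP17. The other called genes of these lists, CIT3 and COA2 higher and MDH2, LPD1, COQ7, COX17 and FMC1 lower, had adjusted p from 0.0288 to 0.0498. CIT3, LPD1, COQ7, COA2, COX17 and FMC1 each lost that call on leaving out at least 1 library.

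The other comparisons, which also held fewer calls over all genes tested, gave these calls in the same lists. In fes1ΔS libraries against WT, ODC1, a mitochondrial carrier of 2-oxoglutarate, was higher (log2 fold change 0.39, adjusted p = 0.00664), and DLD3 (-0.30, adjusted p = 0.0377), COX17 (-0.49, adjusted p = 0.0365) and SDH6 (-0.74, adjusted p = 0.0453) were lower. COX17 carries copper for complex IV, and it had 19.0, 19.3 and 19.6 CPM in fes1ΔS libraries, against 29.6, 23.5 and 27.9 CPM in WT libraries. In the libraries labelled fes1Δ against fes1ΔS, MDH2, the cytosolic malate dehydrogenase, was lower, with 114, 111 and 117 CPM in the libraries labelled fes1Δ, against 150, 140 and 154 CPM in fes1ΔS libraries (log2 fold change -0.38, SE 0.069, adjusted p = 0.00455). Between fes1ΔS and fes1ΔL libraries, NDE1 (0.29, adjusted p = 0.0131), the complex III assembly factor CBP4 (0.45, adjusted p = 0.0150), the oxaloacetate carrier OAC1 (0.27, adjusted p = 0.0185), MPC2 of the pyruvate carrier (0.22, adjusted p = 0.0318) and RCF2 of the complex III and IV supercomplex (0.19, adjusted p = 0.0366) were higher in fes1ΔS. Of the genes in this paragraph, the calls of ODC1 and MDH2 held when any 1 library was left out, and every other call was lost without at least 1 library. In fes1ΔL libraries against WT, none of the genes in the 5 lists (15, 32, 16, 39 and 15 tested) was called. At an unadjusted p under 0.05, 1 of them was higher and 8 were lower, beside 94 and 138 of the 5719 genes tested.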

How the data were processed

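Poly(A) RNA of 12 libraries, 3 for each of 4 strains, was sequenced with a strand-marking kit, per the labels' protocols. The authors deposited whole-number counts per gene, not normalized, and FPKM values. Per the submitters' processing notes, the software used was HTSeq 0.6.1, Cufflinks 2.1.1, TopHat2 2.0.4, Picard 1.29, CASAVA and bcl2fastq 1.8.3, with the sacCer2 build. What each tool did, the strand setting of counting and the handling of shared reads are not given in the sources used. Names tied columns to samples. In the heat-shock tables, 12 columns (6 in each) match no sample's label and were not used, so no comparison after heat shock was made. In the FPKM table, 24 members have 24 values for 12 column names, and their FPKM were not used. For genes with 1 value per column, every FPKM column had its highest correlation with the count column of the same library (12 of 12, over 2540 genes, r from 0.789 to 0.891).

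Differences were tested by edgeR 4.0.16 (R 4.3.3) with its quasi-likelihood test, fitted robustly, after TMM scaling and the default filter on low counts by group. The fit held all 12 libraries, with strain as the sole term. Benjamini-Hochberg adjustment ran over 5719 genes, and an adjusted p under 0.05 was a call. CPM used TMM-scaled library sizes. Standard errors come from the F statistics, and intervals are at the 95% level. P-values and intervals measure the spread between RNA isolations, which may be technical.

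The members and the other gene lists were chosen with earlier results of these data known. Full values were given for members called in any comparison, for CIT1, CIT2, COX5A, COX5B, CYC1, CYC7 and CYB2, and values for up to 3 called genes of each other list in a comparison. RIP1, COX4, COX6, ATP1, ATP7 and any further called genes of the lists were named after their values were seen. Alternatives were RLE size factors, no filter on low counts, DESeq2 1.42.0, a fit without the other strains, a replicate block, each library left out, and limma 3.58.1 on log2(FPKM + 1) and log2(FPKM + 0.1) over 2819 genes. The scripts were tested on simulated counts. Lists were described by counts and medians, with no test of a list. The reference genome at hand is not the sacCer2 build, so coordinates, sequences and promoter motifs are not given.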

Additional observations from a re-analysis of the deposited data

How the results depend on the processing

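For the genes chosen by rule for full values, 776 values were recomputed. Of these, 618 kept their side of the threshold, 143 lost a call and 15 gained one. Comparisons without any call were counted only for members in the fes1Δ-labelled and fes1ΔS libraries against WT. Direction was compared only where either fit held a call, and there 0 values changed it. Without a call, QCR6 in the libraries labelled fes1Δ against WT was -0.008 on FPKM and positive in all 11 alternatives on counts. The calls of CYB2 and COX5A did not depend on any of the 11 alternatives on counts, whereas the other 9 called members in the libraries labelled fes1Δ against WT, and QCR6 in fes1ΔS against fes1ΔL, each lost their call without at least 1 library. CYB2 and COX5A had no usable FPKM, so their calls were not checked on that scale. Among the called members only ATP3, ATP17 and QCR6 had usable FPKM, and each lost its call there (adjusted p = 0.168, 0.356 and 0.248 with limma on log2(FPKM + 1)). For the libraries labelled fes1Δ against WT, the 8 members called higher became 5 when only these groups were fitted, and with a library left out the count ran from 2 to 9 for higher and from 0 to 5 for lower. Against WT, fes1ΔS had 1 member called lower with DESeq2, and 0 to 3 with a library left out. For the libraries labelled fes1Δ against fes1ΔS, 1 member was called higher with DESeq2, and 0 to 1 with a library left out. For fes1ΔS against fes1ΔL, 1 member was called lower when only these groups were fitted, and with a library left out the count ran from 1 to 2 for higher and from 0 to 1 for lower. Fewer samples in a fit leave fewer degrees of freedom; other causes were not tested. RLE size factors moved the median of all genes by under 0.01 and gave 9 higher and 3 lower for the libraries labelled fes1Δ against WT. Same-numbered libraries were not treated as pairs in the main fit. Over 18 such pairs the correlation of their deviations from the strain means ran from -0.19 to 0.29, and 4 exceeded 0.1. Of 12 libraries, 6 correlated best with their own number. These values do not show whether some same-numbered libraries shared a batch. With the replicate block, the libraries labelled fes1Δ against WT gave 6 members higher and 2 lower, the calls of QCR2 (adjusted p = 0.0531), ATP17 (adjusted p = 0.0595) and IDH1 (adjusted p = 0.0655) being lost, and the other 4 comparisons kept their counts. With 3 libraries per group, the median half-width of a 95% interval was 0.18 on the log2 scale. The heat-shock comparison, levels per coding length and the promoter motifs were not run.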
